A study of Rattus norvegicus with 7 samples.

Results

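Collagens II, IX and XI together build the thin fibrils of hyaline cartilage, and 5 genes of this tissue were followed in the lungs of fetal rats: Col2a1 (ENSRNOG00000058560), Col9a2 (ENSRNOG00000011502), Col11a1 (ENSRNOG00000023148), Col11a2 (ENSRNOG00000000463) and Cnmd (ENSRNOG00000012821). The genes were taken by these identifiers, which gave 5 of the 23918 genes in the table. All 5 had enough counts to enter the test, as did 15750 genes in all.

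Collagen II, made from 3 copies of the Col2a1 product, is the bulk of the cartilage fibril. Collagen XI sits inside the fibril and limits its width. Its molecules combine the chains encoded by Col11a1 and Col11a2 with a chain that also comes from Col2a1. Collagen IX, to which Col9a2 contributes a chain, lies on the fibril surface and links it to the surrounding matrix. Cnmd encodes chondromodulin, a membrane glycoprotein of cartilage cells that inhibits the growth of blood vessels. In the respiratory tract this cartilage forms the rings and plates that hold the trachea and the large bronchi open.

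Pregnant Sprague-Dawley rats received intra-amniotic (IA) injections at gestational day 18, and the fetal lungs were collected 24 h later for sequencing of polyadenylated RNA. The control group of 3 lungs had received PBS, and the IA LPS group of 4 lungs had received lipopolysaccharide (LPS), a cell wall component of bacteria, from Escherichia coli O55:B5. The series design gives the LPS dose as 10 µg, while the amount in the treatment label of the single samples is incomplete. The comparison asks how the fetal lung transcriptome differs after bacterial LPS in the amniotic sac. Which lungs came from the same dam was not used here, so the p-values measure the spread between these 7 lungs only. They treat each lung as independent and could be too small if lungs shared a dam.

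The 7 libraries held between 25031827 and 28336525 estimated counts. A count of 3 equalled 0.105 to 0.124 CPM, the counts per 1000000 counts of the library after scaling by edgeR's TMM factors, and this covers counting error only. The lung label was checked on the surfactant gene Sftpc, which lay between 478 and 1222 CPM in the 7 lungs, and on Nkx2-1, the transcription factor of lung epithelium, named after its values were seen, which lay between 310.4 and 389 CPM. The cartilage genes were present in every lung, from 282 counts of Col11a1 in IA LPS lung 2 to 8078 counts of Col2a1 in control lung 2. Transcript lengths were not used here, so levels are compared between lungs. Where a gene is said to be the most abundant of a list or to lead it, the order is that of CPM with no correction for length.

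IA LPS lung 4 stood apart from the other libraries. Its value was the highest or the lowest of the 7 in 64.0% of the genes tested, where an even spread over the libraries would give 28.6%, and the other 6 libraries ranged from 16.5% to 30.9%. The study's own comparison left this lung out, and no reason was given in the sources used here. The 5 genes and their ratios are therefore given over all 7 lungs and also without IA LPS lung 4. For other genes and lists the second value is given where it turned the sign or moved the value by over 1.5 times.

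All 5 genes had a lower mean in the IA LPS group than in the control group, from 75.8% of the control mean for Cnmd down to 44.5% for Col11a2. Summed over the 5 genes, the controls held 454, 431 and 418 CPM and the IA LPS lungs 258, 283, 283 and 267 CPM. Col2a1 was the largest part of each sum, at 270.5 to 299 CPM in the controls and 171 to 212 CPM after LPS. A gene was called at a fold of at least 1.5 with p under 0.05 and adjusted p under 0.1. With all 7 lungs the call was reached by 1 of the 5, Col11a2, where 0.508% of all genes tested were called lower and 1.40% were called higher. Without IA LPS lung 4 it was reached by 3 of the 5, Col9a2, Col11a1 and Col11a2, against 1.13% of all genes called lower. In 4 of the 5 genes, all but Col11a1, every IA LPS lung lay below every control lung, an arrangement found in 9.17% of all genes tested. The collagen IX and XI genes were singled out by the study in these same lungs. All 5 genes, Col2a1 and Cnmd included, were chosen with earlier results of these data known. Their direction and the shares above therefore add no separate evidence. In whole lung tissue, fewer cartilage cells, less RNA per cartilage cell and a different share of cartilage-bearing airway in the sample cannot be told apart. Which cells made the RNA of these genes was not tested.

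Col2a1, the gene of the main fibril collagen, measured 296, 299 and 270.5 CPM in the controls and 190.1, 212, 208 and 171 CPM in the IA LPS lungs. The groups did not overlap, and the lowest value belonged to IA LPS lung 4. The means were 288 ± 15.4 CPM (SD, n = 3) and 195 ± 18.7 CPM (SD, n = 4). The log2 fold change was -0.56 (SE 0.102), with an adjusted p of 0.0523 in edgeR's quasi-likelihood test. The fold stayed just under the threshold of 1.5, so the gene was not called. The log2 fold change without IA LPS lung 4 was -0.51 (SE 0.0740), and Col2a1 was again not called, because of its fold (edgeR, adjusted p = 0.0130). With no fold threshold, 0.851% of all genes tested over 7 lungs were lower at adjusted p under 0.1 (edgeR), and 2 of the 5 genes, Col2a1 and Col11a2, were among them. Without IA LPS lung 4 this held for 5 of the 5 genes, against 4.48% of all genes tested. Of the 7 fits that left out a single lung, the call was reached in 1, without IA LPS lung 3, at a log2 fold change of -0.59 (edgeR, adjusted p = 0.0981, within a range of 2.8e-09 to 0.266 over 14 refits, limma-voom and DESeq2 on 7 and on 6 lungs included).

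Col11a2, which encodes the second chain of collagen XI, measured 64.4, 59.95 and 61.2 CPM in the controls. The IA LPS lungs measured 21.7, 23.9, 27.4 and 37.0 CPM. The controls lay close together, IA LPS lungs 1 to 3 were below 28 CPM, and IA LPS lung 4 lay between them and the controls. The means were 61.8 ± 2.29 CPM (SD, n = 3) and 27.5 ± 6.77 CPM (SD, n = 4). Col11a2 fell by 1.17 on the log2 scale (SE 0.172, edgeR adjusted p = 0.0389) and was lower in 4 of 4 IA LPS lungs. It stood at rank 41 of the 15750 genes by p. Without IA LPS lung 4 it fell by 1.35 (SE 0.0891) and stood at rank 3 of 15627.

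The size of this difference moved little when single lungs were left out, while the call did not hold throughout. Without control lung 1, 2 or 3 the log2 fold change of Col11a2 was -1.14, -1.19 or -1.18, and without IA LPS lung 2 it was -1.10. In these 4 refits the adjusted p of edgeR was 0.204, 0.165, 0.120 and 0.123, within a range of 6.4e-33 to 0.204 over 14 refits. The 4 refits left between 1 and 4 genes called in the whole table, compared with 300 genes over all 7 lungs. The estimated counts of Col11a2 were whole numbers, to within 1e-06, in 0 of the 7 lungs, although in IA LPS lung 2 by a distance of 0.0002 only. Those of the other 4 genes were whole in 7 of 7. Fractions in the count of a gene can arise where reads are divided between transcripts of different genes. The source of the fractions of Col11a2 was not tested, and its level may carry that uncertainty as well.

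Col11a1 encodes the first chain of collagen XI and is known to be made by cells outside cartilage too. It measured 25.4, 14.1 and 24.5 CPM in the controls and 14.9, 10.25, 12.6 and 10.5 CPM in the IA LPS lungs. The groups overlapped, because control lung 2 lay below IA LPS lung 1. The means were 21.3 ± 6.30 CPM (SD, n = 3) and 12.1 ± 2.17 CPM (SD, n = 4). The log2 fold change of -0.82 (SE 0.226) did not pass the test over 7 lungs (edgeR, adjusted p = 0.144). Without IA LPS lung 4 it was -0.76 and was called (edgeR, adjusted p = 0.0993, within a range of 0.0073 to 0.477 over 14 refits).

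Col9a2, the collagen IX gene, measured 50.6, 38.95 and 46.6 CPM in the controls and 17.4, 24.9, 23.5 and 34.5 CPM in the IA LPS lungs. The groups did not overlap, although IA LPS lung 4 came close to control lung 2. The means were 45.4 ± 5.93 CPM (SD, n = 3) and 25.1 ± 7.10 CPM (SD, n = 4). The log2 fold change was -0.86 (SE 0.210) and missed the threshold over 7 lungs (edgeR, adjusted p = 0.114). Without IA LPS lung 4 it was -1.05 (SE 0.146) and was called (edgeR, adjusted p = 0.0124, within a range of 4.1e-10 to 0.412 over 14 refits). DESeq2 over all 7 lungs called Col9a2, Col11a1 and Col11a2, where it called 1.31% of all genes lower.

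Cnmd, the gene of chondromodulin, measured 17.5, 19.5 and 15 CPM in the controls and 13.9, 12.4, 11.9 and 14.4 CPM in the IA LPS lungs. The groups did not overlap, but the highest IA LPS lung and the lowest control differed by less than 1 CPM. The means were 17.35 ± 2.26 CPM (SD, n = 3) and 13.1 ± 1.20 CPM (SD, n = 4). The log2 fold change of -0.40 (SE 0.133) did not pass the test (edgeR, adjusted p = 0.217). It was -0.45 (SE 0.128) without IA LPS lung 4, and the fold stayed under 1.5 (edgeR, adjusted p = 0.0895, within a range of 0.030 to 0.529 over 14 refits). Unlike the collagens, Cnmd was called in 0 of 14 refits. Its unadjusted p over 7 lungs was 0.016 in edgeR.

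**Figure D1:**
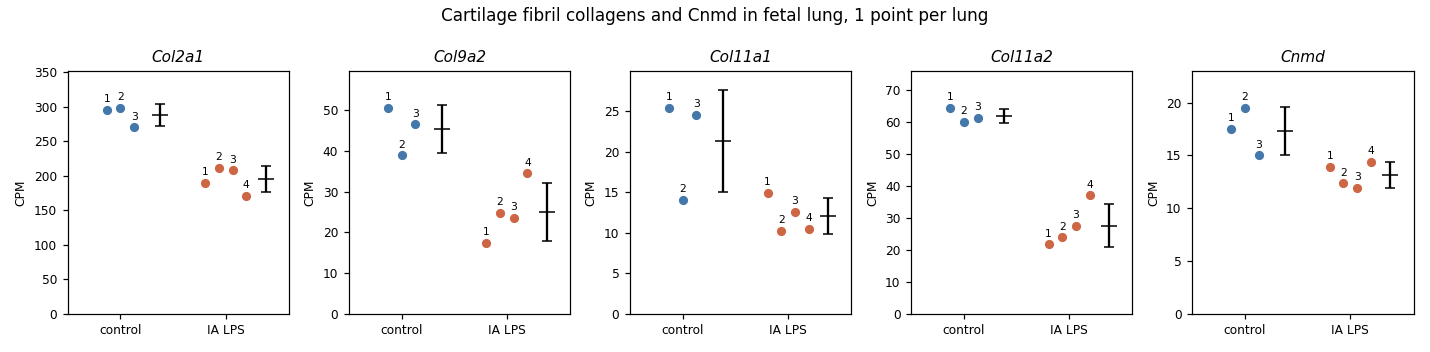
Level of each gene in CPM (vertical axis, starting at 0) in the control and IA LPS lungs. Each point is a lung with its replicate number, and the bar beside the points gives the mean and SD of the group (n = 3 and n = 4). Col2a1 lies between 171 and 299 CPM, and the 4 IA LPS lungs of Col11a2 lie between 21.7 and 37.0 CPM, below the lowest control at 59.95 CPM.

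Because the chains of collagens IX and XI join collagen II in the same fibril, the counts of each were set against those of Col2a1 and of Cnmd in the same lung. Such a ratio does not depend on library size or scaling. The 7 ratios were tested by an exact two-sided permutation of the mean log2 ratio, for which 3 lungs against 4 cannot give a p under 0.05714, nor 3 against 3 a p under 0.1. None of the 7 could therefore pass 0.05, and after adjustment over the 7 ratios the p-values lay between 0.400 and 0.514.

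Per 100 counts of Col2a1, the controls held 21.8, 20.1 and 22.6 counts of Col11a2. IA LPS lungs 1 to 3 held 11.4, 11.3 and 13.2, well below the controls, and IA LPS lung 4 held 21.7, within the control range. Over all 7 lungs the mean log2 ratio differed by -0.63 (SE 0.227, exact permutation p = 0.114), with 3 of 4 IA LPS lungs below all controls. Without IA LPS lung 4 the difference was -0.85 (SE 0.0893), and the exact permutation p of 0.1 is the smallest that 3 against 3 can give.

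Col9a2 against Col2a1 was likewise low in IA LPS lungs 1 to 3, with a wider spread among the controls. Per 100 counts of Col2a1 there were 17.1, 13.05 and 17.2 counts in the controls and 9.15, 11.75, 11.3 and 20.2 in the IA LPS lungs. IA LPS lungs 1 to 3 lay below every control and IA LPS lung 4 above every control. The difference in mean log2 ratio was -0.32 (SE 0.277, exact permutation p = 0.457), or -0.55 (SE 0.174) without IA LPS lung 4 and -0.17 without IA LPS lung 1. IA LPS lung 4 held the lowest Col2a1 level and the highest Col9a2 and Col11a2 levels of its group.

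Col11a1 kept no such order. Per 100 counts of Col2a1 its counts were 8.6, 4.72 and 9.07 in the controls and 7.84, 4.84, 6.06 and 6.14 in the IA LPS lungs, all of which fell within the control range. The difference of -0.23 in mean log2 ratio (SE 0.334) was smaller than its error (exact permutation p = 0.514), and it was -0.23 without IA LPS lung 4 too. It moved to -0.09 without control lung 1, -0.05 without control lung 3, -0.11 without IA LPS lung 2, -0.34 without IA LPS lung 1 and -0.53 without control lung 2. The ratio of Col11a1 to Col11a2, added after the data were seen, was 39.45, 23.5 and 40.1 per 100 in the controls and 68.7, 42.9, 45.9 and 28.4 per 100 in the IA LPS lungs. IA LPS lungs 1 to 3 lay above every control, IA LPS lung 4 lay within the control range, and the difference was 0.41 (SE 0.364, exact permutation p = 0.286). It moved to 0.62 without IA LPS lung 4, 0.20 without IA LPS lung 1 and 0.15 without control lung 2.

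Against Cnmd, Col11a2 was the collagen whose groups separated. Per 100 counts of Cnmd there were 367, 307 and 408 counts of Col11a2 in the controls and 156, 193, 230.3 and 257 in the IA LPS lungs. All 4 IA LPS lungs lay below all 3 controls. The difference in mean log2 ratio was -0.80 (SE 0.198), and its exact permutation p of 0.05714 is the smallest possible here (0.400 after adjustment over the 7 ratios). The difference was -0.91 (SE 0.202) without IA LPS lung 4.

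For Col9a2 the counts per 100 of Cnmd were 289, 199.6 and 310.5 in the controls and 125, 201.5, 198 and 239.9 in the IA LPS lungs. Control lung 2 lay among the IA LPS lungs, and the difference of -0.49 (SE 0.282) had an exact permutation p of 0.171. It was -0.62 without IA LPS lung 4 and -0.30 without IA LPS lung 1. For Col11a1 they were 145, 72.2 and 163.5 in the controls and 107, 82.9, 106 and 72.9 in the IA LPS lungs. The controls spanned the whole IA LPS group, with a difference of -0.39 (SE 0.392, exact permutation p = 0.343). It was -0.29 without IA LPS lung 4, -0.26 without control lung 1, -0.17 without control lung 3 and -0.76 without control lung 2. Cnmd itself, per 100 counts of Col2a1, was at 5.93, 6.54 and 5.55 in the controls and 7.33, 5.83, 5.73 and 8.42 in the IA LPS lungs. IA LPS lungs 1 and 4 lay above the controls, and the difference of 0.17 (SE 0.151) had an exact permutation p of 0.4, and without IA LPS lung 4 it was 0.06.

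**Figure D2:**
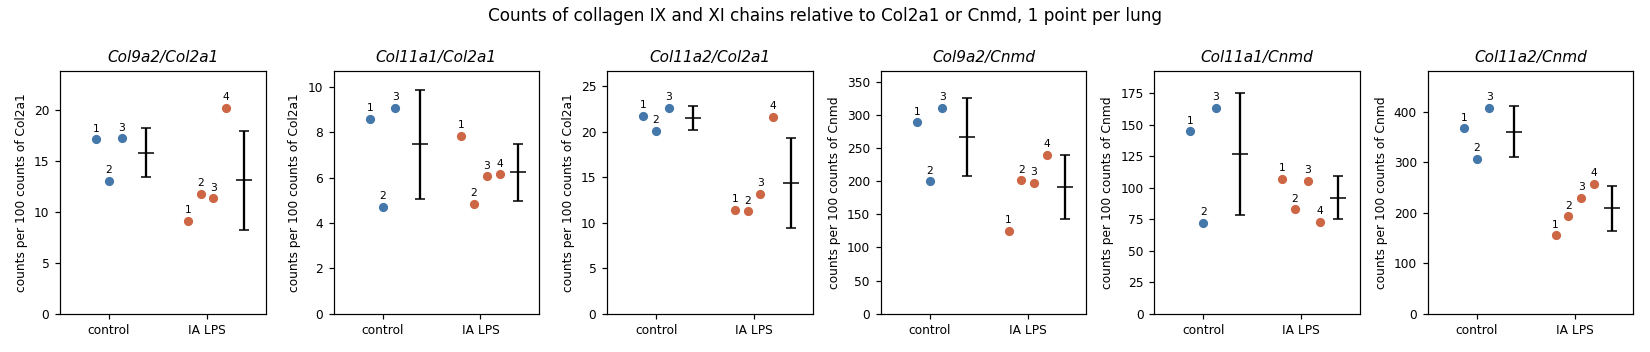
Counts of Col9a2, Col11a1 and Col11a2 per 100 counts of Col2a1 or of Cnmd in the same lung (vertical axes, starting at 0), for control and IA LPS lungs. Each point is a lung with its replicate number, and the bar gives the mean and SD of the group (n = 3 and n = 4). Col11a2 per 100 Cnmd separates the groups (156 to 257 against 307 to 408), while IA LPS lung 4 sits at 21.7 per 100 Col2a1, within the control range.

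Other genes of cartilage could be followed only where an identifier was paired with a name. This held for 8 of the 30 further cartilage genes looked for, all 8 of which were tested. Acan and Sox9 were not among the 8. Of these 8, 7 had a log2 fold change below 0, with a median of -0.40. Over all genes tested the median was 0.01 and 48.5% were below 0. Over all further lists together, those of other collagens and neighbouring tissues included, 48 genes were tested over 7 lungs and 0 were called by edgeR. Its unadjusted p was under 0.05 for 8 of the 48, namely Fmod, Chadl, Col14a1, Col15a1, Bmp4, Myh11, Sftpc and, named after its value was seen, Col23a1. This share of 16.7% was close to the 15.8% found over all genes tested. DESeq2 called 1 of the 48, Sftpc, which was higher (it called 2.69% of all genes higher), and limma-voom called 0.

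Fmod, which encodes fibromodulin, a small proteoglycan that binds collagen fibrils, measured 116, 129 and 97.0 CPM in the controls and 71.3, 91.2, 70.1 and 74.5 CPM in the IA LPS lungs. The groups did not overlap, and its log2 fold change of -0.57 (SE 0.132, edgeR adjusted p = 0.0970) stayed just under the fold threshold. Col9a3, which encodes another chain of collagen IX, had 17.0, 15.6 and 21.9 CPM in the controls and 10.75, 16.25, 13.9 and 14.5 CPM in the IA LPS lungs. These groups overlapped, and the log2 fold change was -0.39 (SE 0.174, edgeR adjusted p = 0.325), or -0.24 without control lung 3. Col9a2 per 100 counts of Col9a3, a ratio added after the data were seen, was 298, 249.2 and 213 in the controls and 162, 153, 169 and 238 in the IA LPS lungs. IA LPS lungs 1 to 3 again lay below the controls and IA LPS lung 4 among them, and the difference was -0.50 (SE 0.200, exact permutation p = 0.114). Col9a3 itself per 100 counts of Col2a1, also added after the data were seen, was 5.75, 5.24 and 8.09 in the controls and 5.66, 7.67, 6.7 and 8.49 in the IA LPS lungs. Its difference of 0.17 (SE 0.229, exact permutation p = 0.457) had the opposite sign to that of Col9a2 against Col2a1. Its size rested on single lungs, at 0.05 without control lung 2, 0.08 without IA LPS lung 4, 0.11 without control lung 1, 0.28 without IA LPS lung 1 and 0.36 without control lung 3.

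Hapln1, the link protein that fastens aggrecan to hyaluronan, had a log2 fold change of -0.36 (SE 0.285), and Cytl1, a secreted protein of cartilage cells, -0.71 (SE 0.459). Both had overlapping groups and rested on single lungs. Hapln1 was at -0.17 without control lung 1 and -0.16 without IA LPS lung 1, and Cytl1 at -0.30 without control lung 3. Chadl, which encodes a chondroadherin-like protein of cartilage matrix, lay in the other direction. Its controls had 1.32, 1.11 and 1.76 CPM and its IA LPS lungs 2.48, 3.05, 2.00 and 2.04 CPM, all above the controls. Its log2 fold change of 0.78 (SE 0.265) did not pass the test (edgeR, adjusted p = 0.226). The remaining 3, named after their values were seen, were Chad, Matn3 and Ucma.

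Among the other fibril and fibril-associated collagens, 3 of 14 had a name and were tested, with a median log2 fold change of -0.33. Col14a1, which coats the fibrils of soft connective tissue, averaged 376 ± 38.0 CPM in the controls (SD, n = 3) and 298 ± 25.2 CPM in the IA LPS lungs (SD, n = 4), with no overlap and a log2 fold change of -0.33 (SE 0.108). Col12a1, a relative of the same type, had -0.48 (SE 0.221) with overlapping groups, or -0.32 without control lung 1. Col22a1 lay between 0.705 and 1.65 CPM with a log2 fold change of -0.23 (SE 0.367), which was -0.13 without IA LPS lung 4 and turned to 0.23 without control lung 3.

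Of the 22 collagens that form basement membranes, networks or membrane proteins, 8 were tested, with a median log2 fold change of -0.07, or -0.01 without IA LPS lung 4. Col15a1, a collagen of the basement membrane zone, measured 145, 140.4 and 127 CPM in the controls and 96.2, 102, 99.1 and 101 CPM in the IA LPS lungs. It did not overlap between groups, with a log2 fold change of -0.46 (SE 0.0823, edgeR adjusted p = 0.0497), but its fold was under 1.5. Of the 29 genes for collagen processing that were looked for, 0 had a name.

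Of 18 genes that signal to airway cartilage in development, 3 were tested, with a median log2 fold change of 0.04, or 0.10 without IA LPS lung 4. Bmp4, a growth factor that promotes cartilage formation, measured 84.6, 90.8 and 86.9 CPM in the controls and 102, 120.2, 141 and 118 CPM in the IA LPS lungs. All IA LPS lungs lay above the controls, and the log2 fold change was 0.46 (SE 0.116, edgeR adjusted p = 0.118). The gene at the median in both was Shh (0.04, SE 0.126). Gli2, a transcription factor of the hedgehog pathway, measured 80.8, 87.0 and 68.8 CPM in the controls and 58.9, 61.2, 63.2 and 18.85 CPM in the IA LPS lungs. All 4 IA LPS lungs lay below the controls, with lung 4 far below the rest. The log2 fold change of Gli2 was -0.64 (SE 0.354), or -0.37 (SE 0.0885) without IA LPS lung 4. Shh and Gli2 were named after their values were seen.

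Genes of tissues that lie beside the lung and its airways were counted next to these results. A name was found for 8 of 12 skeletal and 6 of 11 heart muscle genes. It was found for 5 of 10 bone genes and for 3 of 6 genes of thyroid and oesophagus. The sums cover these genes only. The summed level of 8 skeletal muscle genes, 7 of them tested, was 84.2, 21.0 and 49.8 CPM in the controls and 144, 33.2, 27.2 and 49.1 CPM in the IA LPS lungs. The most abundant by its mean was Actn2, between 9.83 and 45.5 CPM. In IA LPS lung 1, Myh3 lay above it, at 46.3 CPM compared with 0.591 to 8.68 CPM in the other lungs. Myh3 was named after its values were seen. The 6 heart muscle genes, led by Actc1, summed to 519, 49.6 and 178 CPM in the controls and 261, 154, 85.75 and 389 CPM in the IA LPS lungs. Both lists were lowest in control lung 2, and the range of the controls overlapped that of the IA LPS lungs. The median log2 fold change was 0.30 for skeletal muscle and -0.09 for heart muscle, the latter -0.52 without IA LPS lung 4.

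The 3 genes of thyroid and oesophagus, led by the oesophageal keratin Krt4, summed to 183 CPM in IA LPS lung 1, 58.2 CPM in control lung 1 and 8.95 to 13.01 CPM in the other 5 lungs. Of 5 bone genes 4 were tested, the most abundant being Phex with a log2 fold change of -0.36 (SE 0.226), which was -0.19 without IA LPS lung 4. The median log2 fold change of the bone list was -0.13, or -0.28 without IA LPS lung 4, and 3 of the 4 genes were below 0. The summed level of the bone list was 52.8 to 69.6 CPM in the controls and 42.8 to 58.9 CPM in the IA LPS lungs. The part of neighbouring tissue in the cartilage values was not tested.

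Of 8 airway smooth muscle genes looked for, 3 had a name. Their sum was 703, 679 and 501 CPM in the controls and 550, 412, 379 and 553 CPM in the IA LPS lungs. Myh11, the smooth muscle myosin heavy chain and the most abundant of them, had a log2 fold change of -0.56 (SE 0.179) with overlapping groups, and without IA LPS lung 4 it fell by 0.65 and was called (edgeR). Of the other 2, Actg2 had a log2 fold change of -0.40 and Cnn1 of 0.02, likewise with overlapping groups. The value of Cnn1 turned to -0.21 without IA LPS lung 4, which held its highest level at 149 CPM. Of 16 epithelial genes looked for, 3 had a name. Their sum was 800.3, 978 and 994 CPM in the controls and 1113, 1356, 1207 and 1590 CPM in the IA LPS lungs. Sftpc, the most abundant, lay higher in every IA LPS lung than in any control, with a log2 fold change of 0.70 (SE 0.194, edgeR adjusted p = 0.145). The order of the sums rests on Sftpc, since Nkx2-1 had a log2 fold change of 0.08 and Krt5 ranged from 0.185 to 31.6 CPM, both with overlapping groups. Actg2, Cnn1 and Krt5 were named after their values were seen. The part of these cell types in the lower cartilage values was not tested.

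The genes whose pattern over the 7 lungs was most like the mean of the 5 genes were Tspan11, Col15a1, Crabp2, Septin3 and Cpxm1, with Pearson r of log2 CPM between 0.951 and 0.965 among 972 named candidates. Crabp2, which binds retinoic acid in the cell, averaged 12.6 ± 3.89 CPM in the controls (SD, n = 3) and 5.17 ± 0.629 CPM in the IA LPS lungs (SD, n = 4). Most like Col2a1 alone were Tmem132d, Gldc, Gna14, Ctnnd2 and Cyp1b1, with r between 0.953 and 0.966. Ctnnd2, the gene of delta-catenin, measured 53.4, 53.96 and 58.6 CPM in the controls and 30.2, 39.3, 33.8 and 21.8 CPM in the IA LPS lungs, lowest in IA LPS lung 4 as Col2a1 was. In each of these genes every IA LPS lung lay below every control lung, so a high r largely restates the difference between the groups. Within the 4 IA LPS lungs the 5 cartilage genes did not vary together. There r ranged from -0.924 for Col2a1 with Cnmd to 0.919 for Col9a2 with Col11a2. The measure is a description of these 7 lungs only.

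The start regions of the collagen IX and XI genes are shown because the means of these genes were lower together in the IA LPS group. The RefSeq promoters used here covered 3 of the 5 genes, with 250 bases before and 50 bases after the annotated start on build GRCr8, written 5′ to 3′ on the strand of the gene. That build differs from the rno6.0 transcripts behind the counts. Motifs were searched on both strands: the SOX words ACAAAG or ACAATG or TCAAAG or TCAATG, the GC box GGGCGG and the TATA word TATAAA. Capitals mark the matches. Col9a2 lies at chr5:139892548-139892847 on the plus strand, Col11a1 at chr2:204508886-204509185 on the plus strand and Col11a2 at chr20:4817599-4817898 on the minus strand.

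Col9a2: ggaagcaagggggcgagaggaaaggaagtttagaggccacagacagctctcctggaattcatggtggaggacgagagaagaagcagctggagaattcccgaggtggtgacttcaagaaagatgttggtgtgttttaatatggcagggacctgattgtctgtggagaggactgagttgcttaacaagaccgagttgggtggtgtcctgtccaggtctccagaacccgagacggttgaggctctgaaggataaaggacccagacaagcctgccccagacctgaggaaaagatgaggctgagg

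Col11a1: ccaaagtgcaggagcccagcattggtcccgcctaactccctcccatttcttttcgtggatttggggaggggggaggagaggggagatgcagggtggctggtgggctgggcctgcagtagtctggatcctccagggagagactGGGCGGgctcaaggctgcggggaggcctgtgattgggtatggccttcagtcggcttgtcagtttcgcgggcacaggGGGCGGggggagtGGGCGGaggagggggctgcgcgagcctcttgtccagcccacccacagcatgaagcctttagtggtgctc

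Col11a2: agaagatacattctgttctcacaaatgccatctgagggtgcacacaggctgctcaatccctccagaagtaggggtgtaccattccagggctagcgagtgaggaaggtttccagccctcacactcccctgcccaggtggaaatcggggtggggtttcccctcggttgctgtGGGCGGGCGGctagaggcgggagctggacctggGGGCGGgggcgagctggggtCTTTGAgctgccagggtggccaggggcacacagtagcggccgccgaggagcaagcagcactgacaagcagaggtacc

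The Col9a2 window held 0 matches to these words and had a GC content of 53.0%, near the median of 51.7% over 33465 promoters of the same length. The Col11a1 window, at 64.7% GC, held 3 GC boxes. The Col11a2 window, at 62.7% GC, held 3 GC boxes, a pair of which overlap, and 1 SOX word on the opposite strand, read here as CTTTGA. Of all promoters 33.1% held a GC box, 44.9% a SOX word and 14.2% the TATA word. A match is a description of the letters in the window and not a bound site.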

How the data were processed

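Polyadenylated RNA of 7 fetal lungs was analysed (3 control, 4 IA LPS). Estimated counts for each gene were deposited by the authors, who used kallisto on rat transcripts of build rno6.0 and tximport to sum transcripts to genes. Versions were not given in the sources used here. Between 73.2% and 75.15% of values per library were whole to within 1e-06. The counts were rounded and tested with edgeR 4.0.16 (R 4.3.3; TMM, filterByExpr, quasi-likelihood, condition as the only term), after a run on simulated data. DESeq2 1.42.0 and limma 3.58.1 (voom) served as alternatives. P-values were adjusted by Benjamini-Hochberg over all genes tested. Calls used the thresholds of the study (fold 1.5, p 0.05, adjusted p 0.1). Levels are CPM, and 0 pairs of libraries were identical. Ratios of the deposited counts per lung were tested by exact permutation.

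The table pairs no names with identifiers, so names of the other genes came from supplementary sheets of the study, which gave 2070 pairs, 2050 of them in the table. Nearly all came from genes higher or lower in placenta, so the named genes are a selected set. Of the tested genes from the sheet of lower genes 52.9% were lower in IA LPS lungs, of those from the sheet of higher genes 33.3%, and of genes without a name 49.1%.

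The members and lists were chosen with earlier results of these data known. Named were the members, every called list gene, the 5 most abundant tested genes of the cartilage and fibril collagen lists, the most abundant gene of each other list, and the 5 genes of at least 1 CPM most like the members (Pearson r of log2 CPM, prior count of 2) and most like Col2a1. Other genes are marked as named after their values were seen. The promoters came from RefSeq.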

Additional observations from a re-analysis of the deposited data

Results flagged for a closer look

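Within the 4 IA LPS lungs, a lung far from the other 3 was found in 2 of 37 values tested with Dixon's criterion at the 95% level, where chance gives about 1 in 20. Hapln1 was low in IA LPS lung 1, at 1.89 on the log2 CPM scale. Krt4 was high in the same lung, at 6.79 on the log2 CPM scale. Neither gene is among the 5 cartilage fibril genes, and Krt4 belongs to the list of thyroid and oesophagus. The 37 values covered the genes named by rule and the 7 ratios. Gli2, which was far lower in IA LPS lung 4 than in the rest of its group, was not among them.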

How the results depend on the processing

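All 5 genes kept a log2 fold change below 0 in each of 14 refits. In 4 of the 5 every IA LPS lung lay below every control lung, so leaving out single lungs could hardly turn the sign. Each of the 7 ratios kept its sign in 9 of 9 alternatives, though not its size. Over these the log2 difference ranged from -0.55 to -0.17 for Col9a2/Col2a1, -0.53 to -0.05 for Col11a1/Col2a1, -0.85 to -0.53 for Col11a2/Col2a1, -0.69 to -0.30 for Col9a2/Cnmd, -0.76 to -0.17 for Col11a1/Cnmd, -0.91 to -0.67 for Col11a2/Cnmd and 0.06 to 0.25 for Cnmd/Col2a1. The called genes numbered 300 over 7 lungs, 515 without IA LPS lung 4 (the 6 lungs of the study), 630 with DESeq2, 579 with DESeq2 on the 6 lungs (added after the data were seen) and 124 at adjusted p under 0.05. Leaving out single lungs gave 1 to 515. Without control lung 1, 2 or 3 or IA LPS lung 2 there were 2, 1, 4 or 1, and without IA LPS lung 1 or 3 there were 196 or 166. The cause was not tested.

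Col2a1 was called at -0.56 with no fold threshold, and single lungs left out gave -0.61 to -0.51. Col9a2 was called at -1.05 in the 6 lungs, -0.86 with DESeq2 and -1.06 with DESeq2 on the 6 lungs (single lungs left out, -1.05 to -0.71). Col11a1 was called at -0.76, -0.83 and -0.77 in these settings (single lungs left out, -1.05 to -0.68). For Col11a2, single lungs left out gave -1.35 to -1.07. Cnmd was called in 0 of 14 refits.

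The replicate numbers did not pair the lungs: correlations of same-numbered lungs were 0.16, -0.08 and -0.21, and not every lung correlated best with its own number. IA LPS lung 4 has no control of its number, so the replicate block also takes that lung out of the comparison. It gave 438 called genes, fewer than the 515 of the 6 lungs, with Col9a2 called at -1.06 and Col11a1 at -0.73, both of which were called in the 6 lungs with no block.

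Some genes that were not called changed sign. Col22a1 ranged from -0.44 to 0.23 with single lungs left out. Actn2 ranged from -0.52 to 0.61 and was 0.059 with limma-voom. Actc1 ranged from -0.32 to 1.13, and was -0.23 in the 6 lungs, -0.24 there with DESeq2 and -0.019 with the replicate block. Krt4 ranged from -0.86 to 1.97. The cause was not tested. A count of 3 equals at most 0.124 CPM in these libraries, and how depth limits the calls was not tested.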
